A study of Homo sapiens with 6 samples.

Results

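The genes of the cytosolic ribosomal proteins were followed through 6 RNA libraries of HEK293 cells, a human embryonic kidney cell line. A gene was a member when its name in the authors' table was RPSA, RPLP0, RPLP1 or RPLP2, or RPL or RPS with a number and at most a short ending such as A, X or L. RPS27A, the copies on the Y chromosome, the RPS6K kinases, antisense genes and pseudogenes were left out by name. This gave 84 of the 24178 genes with a value in the libraries. They comprise 46 genes of the large subunit, 31 of the small subunit and 7 paralogs, which are second copies of a member elsewhere in the genome. The rule uses names alone and no measured value.

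The 3 control cultures stayed at 37°C without treatment, and the 3 heat shock cultures spent 30 minutes at 45°C in a water bath. The cells were collected 30 minutes after the heat shock, a time the labels do not give. All 6 libraries came from the same line in the same medium, and total RNA was depleted of ribosomal RNA before sequencing. Values are FPKM, a fragment number divided by transcript length and by all mapped fragments of that library, as the Cufflinks program gave them for each library. They are per length of each listed transcript, so the level of a gene also depends on which transcripts Cufflinks listed for it.

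A ribosome carries 1 copy of almost every one of these proteins, and the proteins are built into the large or the small subunit together with ribosomal RNA in the nucleolus. Their genes are transcribed at a high and coordinated rate in growing cells. Most of the mRNAs begin with a cytosine followed by an unbroken run of C and T, the terminal oligopyrimidine (TOP) start, through which the mTOR pathway and the protein LARP1 set how much of the mRNA is translated. Heat shock is known to slow the translation of most mRNAs, which RNA levels do not show.

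The TOP start is the sequence feature that these genes share, and it is shown here because it was not used to choose them. RefSeq starts on GRCh38.p14 were at hand for 66 of the 84 members, 80 starts in all. Each line gives 30 bases on the strand of the gene, 10 before the annotated start and 20 from it, with the longest run of C and T in capitals. The first 8 belong to members with runs between 8 bases in RPSA and 25 in RPL7A, from the stalk, both subunits and the genes discussed later.
RPLP2, chr11:809957-809986, plus strand: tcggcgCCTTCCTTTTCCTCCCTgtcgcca
RPL7A, chr9:133348208-133348237, plus strand: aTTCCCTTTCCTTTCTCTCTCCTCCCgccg
RPS12, chr6:132814559-132814588, plus strand: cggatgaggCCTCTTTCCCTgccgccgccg
RPS16, chr19:39435930-39435959, minus strand: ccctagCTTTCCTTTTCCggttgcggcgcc
RPL26, chr17:8383174-8383203, minus strand: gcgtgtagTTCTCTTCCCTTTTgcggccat
RPL39, chrX:119791611-119791640, minus strand: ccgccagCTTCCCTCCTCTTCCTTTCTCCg
RPL37A, chr2:216498834-216498863, plus strand: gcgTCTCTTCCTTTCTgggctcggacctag
RPSA, chr3:39406710-39406739, plus strand: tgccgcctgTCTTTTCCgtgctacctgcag

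Short runs were not confined to paralogs, with 5 bases in RPL3, RPS4X and RPS29, and the paralog RPL22L1 had a run of 10. In several other paralogs the same window held only a short run, and 3 of them are shown for contrast.
RPS27L, chr15:63157458-63157487, minus strand: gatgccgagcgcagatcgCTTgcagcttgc
RPL7L1, chr6:42879606-42879635, plus strand: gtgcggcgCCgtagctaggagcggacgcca
RPL10L, chr14:46651762-46651791, minus strand: gtagttaagagagcgcaTTTTgacttcgag

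Over all 80 member starts the longest run in the window had a median of 10 bases and ranged from 2 to 25, against a median of 4 at the 14157 starts of other tested genes. A run of 8 or more was present at 67.5% of member starts, 12.8% of the starts of other tested genes and 12.7% of all 35097 starts. On the strand of the gene, the letters CTTTTC were in the window of 12.5% of member starts, CTCTTT in that of 18.8%, CTTTCC in that of 23.8% and CTTTTT in that of 5.00%, and these can overlap in a run. At least 1 of the 4 was present at 41.2% of member starts, 3.96% of the starts of other tested genes and 4.50% of all starts. The letters CTTCCG or their reverse complement CGGAAG, from 100 bases before to 50 after the start, were present at 45.0% of member starts, 20.1% of the starts of other tested genes and 13.4% of all starts. TATAAA, 40 to 20 bases before the start, was present at 5.00%, 1.93% and 2.25%. These are letter matches in fixed windows, and several starts of 1 gene overlap.

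The libraries differed from each other in a way that the treatment does not follow, and this bears on every value of these genes. The median member had 676, 314 and 697 FPKM in control replicates 1 to 3 and 1587, 1753 and 345 FPKM in heat shock replicates 1 to 3. Heat shock replicates 1 and 2 were thus high, while heat shock replicate 3 lay next to control replicate 2, below the other controls. A common factor was computed for each library as the median ratio of the members to their mean over the libraries, and is called the family factor. It was 0.936, 0.436 and 0.937 in the control libraries and 2.12, 2.44 and 0.495 in the heat shock libraries. The same factor over the 905 other genes above 10 FPKM in every library differed from it little, with a ratio of the first to the second between 0.972 and 1.06. The ribosomal protein genes therefore moved between libraries by about the same amount as other abundant genes, as the plot of the factors shows. The number of assembled transcripts without a strand was between 141632 and 194489 in control replicates 1 and 2 and heat shock replicate 3, and between 17304 and 45600 in the other libraries, and its part in these levels was not tested.

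**Figure D1:**
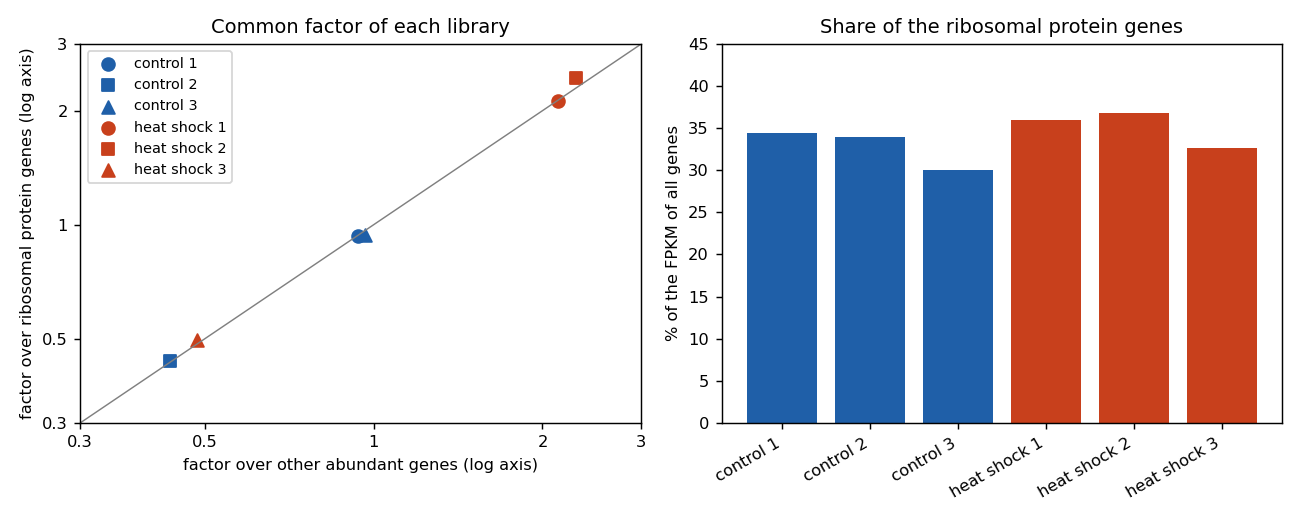
Left, the common factor of each library over the ribosomal protein genes (vertical) against that over 905 other abundant genes (horizontal), both on log axes, with the line of equal values. Right, the percent of the FPKM of all genes that the ribosomal protein genes took in each library. The 6 points lie along the line, heat shock replicate 3 lies beside control replicate 2, and the shares lie between 30.0% and 36.8%.

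The family took between 30.0% and 36.8% of the total FPKM in every library. Its 84 genes held 34.5%, 33.9% and 30.0% of the FPKM of all genes in the control libraries and 36.0%, 36.8% and 32.6% after heat shock, so the groups overlapped. When each transcript was counted by FPKM times length, the shares were 31.99%, 32.2% and 32.7% in the control libraries and 38.5%, 39.1% and 31.5% after heat shock, which overlap as well because of heat shock replicate 3. FPKM is relative to the fragments of its library, so less RNA of these genes and more RNA of others cannot be told apart. The totals were unequal as well. The FPKM of all genes summed to 228957, 118865 and 296145 in the control and 523518, 564856 and 129284 in the heat shock libraries. The cause was not tested.

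No member passed the test for a change after heat shock. Of the 83 members with a mean of at least 1 FPKM, limma on log2(FPKM + 1) with Benjamini-Hochberg adjustment called 0 higher and 0 lower at an adjusted p under 0.05 and over 2-fold, against 0.0154% of the 13028 genes tested called higher and 0.00768% called lower. RPL10L alone was under the minimum. The lowest adjusted p of a member was 0.710. At an unadjusted p under 0.05, 1 member was higher and 0 were lower, against 2.07% and 1.62% of all genes. The log2 fold change was above 0 for 82 of the 83 members, where it was above 0 for 73.0% of all genes and below 0 for 27.0%. RPL3L was the exception. Its median was 0.91 for the members, 0.45 for all genes tested and 0.85 for the other abundant genes. Standard errors of the members on this scale were between 0.66 and 1.00, and the 95% interval of a typical member reached 1.86 to either side, so that a doubling could not be told from no change. The 3 libraries of 1 group are replicates by their labels, which do not say more of the cultures, so these p-values measure the spread between the libraries.

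Heat shock replicate 3 decided how far the members stood from the controls. Without it the median log2 fold change of the members was 1.64 and 75 of the 83 members had an unadjusted p under 0.05, all higher, against 39.5% of all genes higher and 9.36% lower. With this library left out limma called 0 members after adjustment, with a lowest adjusted p of 0.0793, and called 0.0691% of all genes higher. Without control replicate 2 the median was 0.56.

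**Figure D2:**
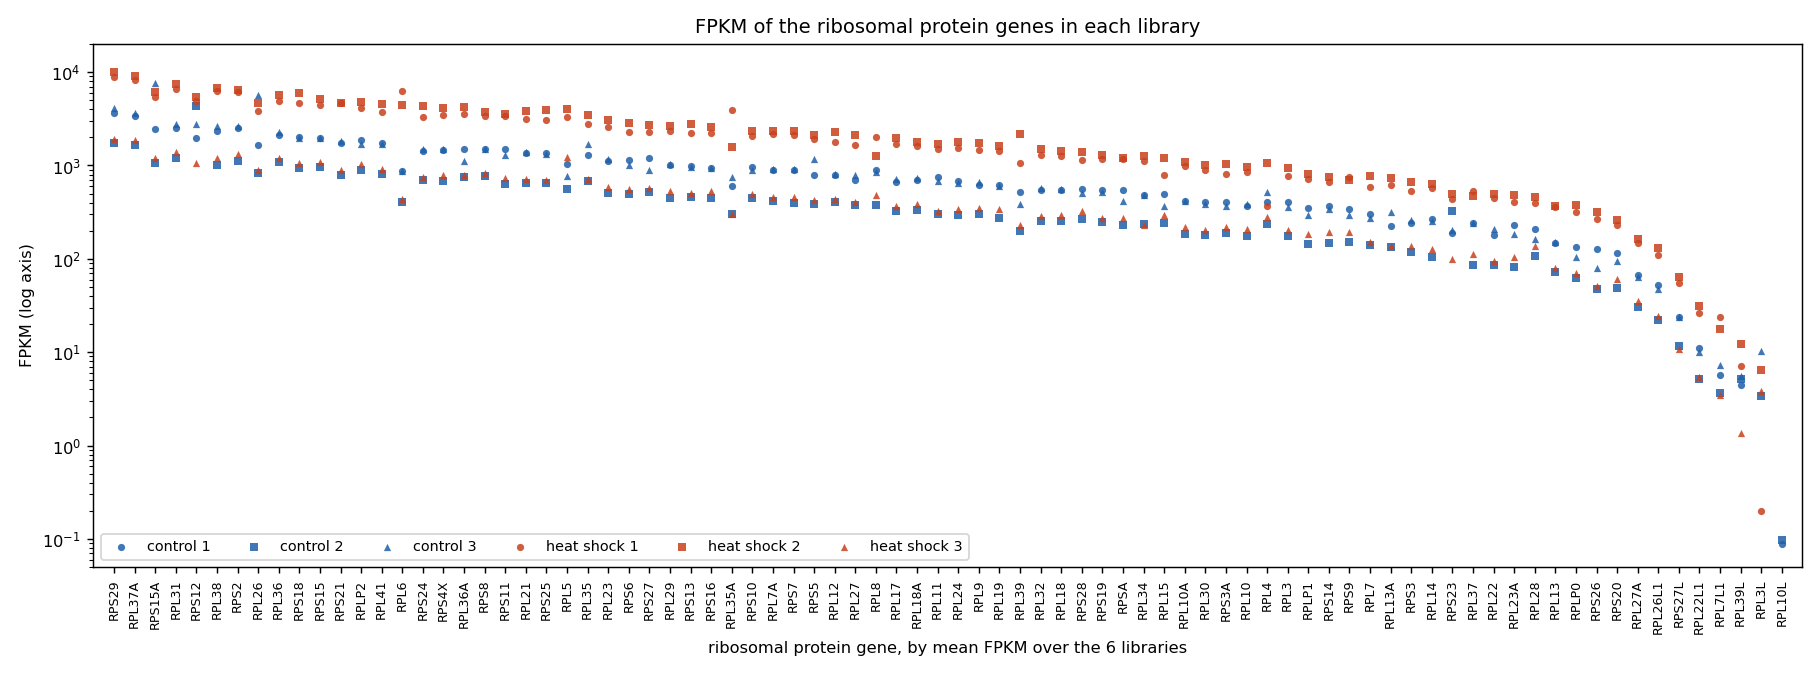
FPKM (vertical, log axis) of the ribosomal protein genes reported here, ordered by mean FPKM over the 6 libraries (horizontal). Blue marks are control and red marks heat shock libraries, with 1 mark shape for each replicate; a value of 0, and 1 value of RPL10L below the axis, are not drawn. In most genes the marks keep the same order, with heat shock replicates 1 and 2 on top and control replicate 2 and heat shock replicate 3 at the bottom.

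The levels of the genes within a library spanned a wide range and kept their order. Between the 77 members that are not paralogs, the mean FPKM over the 6 libraries differed by 59.6-fold from RPL27A to RPS29. RPS29, a small zinc-binding protein of the small subunit, had 3673, 1755 and 4091 FPKM in the control libraries and 8833, 9950 and 1922 FPKM after heat shock. RPL37A, a zinc-binding protein of the large subunit, followed with 3353, 1642 and 3641 FPKM and then 8326, 9077 and 1892 FPKM. RPL31, which lies by the exit of the peptide tunnel, had 2528, 1195 and 2785 FPKM in the controls and 6511, 7464 and 1400 FPKM after heat shock. In each of these 3 genes the control and heat shock libraries overlapped, because heat shock replicate 3 lay below 2 of the controls.

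RPL27A, at the low end, had 67.1, 30.1 and 64.1 FPKM in the control libraries and 147, 164 and 35.5 FPKM after heat shock, and is named for its place in this order after its values were seen. Its annotated transcript is 4879 bases long, the longest annotated transcript of any member. Spearman's rho between the mean FPKM and the length of the longest annotated transcript was -0.56 over the 77 genes, as a description, since FPKM is itself divided by length. The ranks of the members were alike in every pair of libraries, with rho between 0.956 and 0.990 over the 15 pairs. The mRNAs of proteins that are built into the ribosome in equal number were thus far from equal on the FPKM scale in these libraries.

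Dividing each library by the family factor compares a member with the middle of its family, and on this scale most members hardly varied. The highest of the 6 values of a member exceeded the lowest by 1.18-fold in the median member. All 6 values lay within 1.5-fold for 67 of the 84 members and within 2-fold for 72, which leaves 12 that spanned more. RPL18, chosen after its values were seen as the steadiest, had 581, 588 and 603 in the control and 600, 591 and 601 in the heat shock libraries, in FPKM divided by the family factor. Its log2 fold change relative to the family was 0.02, with a 95% interval from -0.12 to 0.15.

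On this scale limma called 0 members in either direction, and 0 of all 13028 genes. The median log2 fold change of the members was 0.00 by construction and that of all genes was -0.24. At an unadjusted p under 0.05, 1 member was higher and 0 were lower, against 0.645% and 2.84% of all genes. For 66 of the 77 genes that are not paralogs, the 95% interval of the log2 fold change lay within 1.5-fold in either direction, so a larger difference from the family was outside the interval for these genes. With the factor over other abundant genes, which holds no member, 64 of the 77 intervals lay within 1.5-fold. The median log2 fold change of the members on that scale was 0.05, of the other abundant genes 0.00 and of all genes -0.20, and 64 of the 83 members lay above 0, against 29.1% of all genes and 459 of the 905 other abundant genes. On this scale 1 member, RPL5, was higher at an unadjusted p under 0.05 by limma and 0 were lower, against 0.768% and 2.40% of all genes. The histogram of log2 fold changes shows the members as a narrow peak on both scales.

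**Figure D3:**
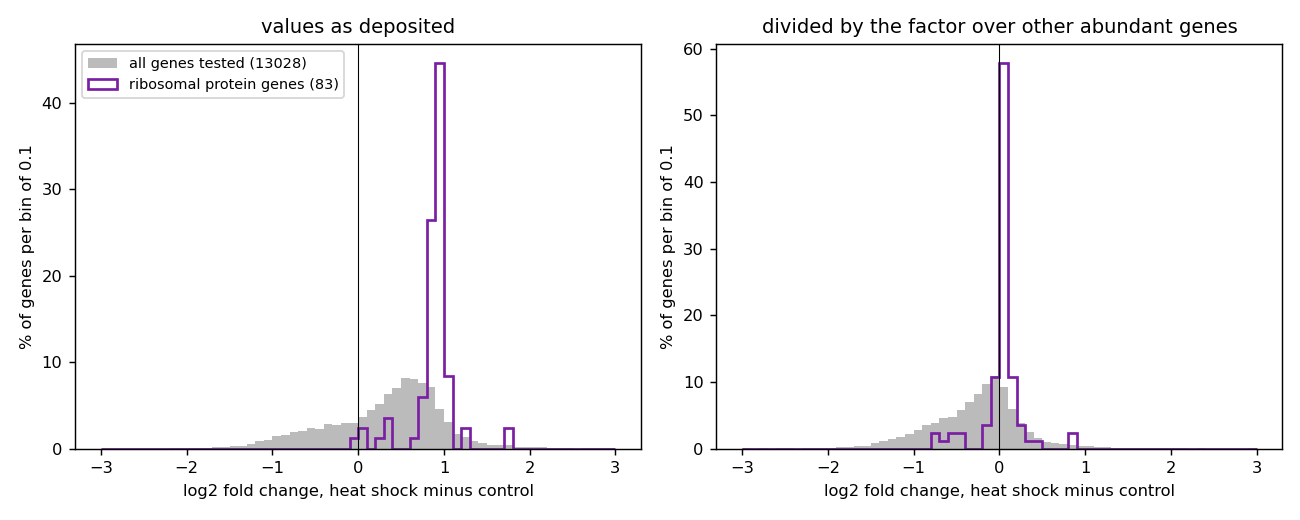
Percent of genes (vertical) by log2 fold change, heat shock minus control (horizontal, bins of 0.1), for all 13028 genes tested (grey) and the 83 ribosomal protein genes tested (purple line), with values as deposited (left) and divided by the factor over other abundant genes (right). The members form a narrow peak at a median of 0.91 on the left and 0.05 on the right; values beyond 3 are drawn in the last bin.

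In 5 members all 3 heat shock libraries lay above all 3 control libraries relative to the family, and in 0 members all lay below. Among all genes the shares were 1.51% above and 6.70% below. The median log2 fold change on this scale was -0.24 for all genes and 0.00 by construction for the members. These shares thus have another centre, and 5 of 83 members (6.02%) cannot be read as an excess. As deposited, RPL5 alone lay above and 0 members below, against 3.71% and 2.26% of all genes. The 5 members were RPL5 in the large subunit, RPL19 in the large subunit, and RPS18, RPS16 and RPS4X in the small subunit. RPS16 had 1006, 1020 and 999 in the control and 1036, 1067 and 1068 in the heat shock libraries, in FPKM divided by the family factor, a log2 fold change of 0.07 with a 95% interval from -0.05 to 0.19. RPL19 had 654, 635 and 643 in the control and 673, 661 and 685 in the heat shock libraries. RPS4X had 1575, 1573 and 1586 in the control and 1618, 1673 and 1599 in the heat shock libraries. For RPS18 the control values were 2144, 2131 and 2081 and the heat shock values 2182, 2456 and 2153. The differences of these 4 genes were small, at most 0.09 on the log2 scale, and each interval held 0.

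RPL5, which binds 5S rRNA and, when free of ribosomes, the p53 regulator MDM2, was the member with the lowest p-value. It lies at chr1:93297594-93307481 on hg19, plus strand. Its FPKM was 1033, 560 and 775 in the control libraries, 789 ± 237 (mean ± SD, n = 3), and 3308, 4036 and 1233 after heat shock, 2859 ± 1455 (n = 3). The groups did not overlap in these sums, which add transcripts of unequal length. The log2 fold change was 1.73 (SE 0.73), with an unadjusted p of 0.0351 and an adjusted p of 0.710 by limma. Relative to the family it was 0.82 (SE 0.24), with an unadjusted p of 0.0145 and an adjusted p of 0.872 by limma.

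The heat shock values of RPL5 were made up largely of assembled transcripts, which Cufflinks built from the reads besides the annotated transcript of 1031 bases. These assembled transcripts were 711, 634 and 449 bases long and held 2023, 2534 and 967 FPKM in heat shock replicates 1 to 3. In control replicate 1 no such transcript was listed, and in the other controls 387 and 293 FPKM lay on assembled transcripts of 861 and 1006 bases. In control replicate 3 a further transcript of 243 bases without a strand lay over the gene with 4385 FPKM and was counted to no gene. A short transcript has a high FPKM for the same number of fragments. When the transcripts were weighted by their length, the log2 fold change of RPL5 relative to the family was 0.37, with a 95% interval from 0.02 to 0.72 and an adjusted p of 0.838 by limma. The transcript without a strand in control replicate 3 was left out of this value too, which keeps that control lower. From annotated transcripts alone its log2 fold change as deposited was 0.86, against a median of 0.90 over the members.

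The members that spanned more than 2-fold relative to the family were 9 members of the subunits and 3 paralogs. In 8 of the 9 the odd library was one in which Cufflinks had listed a short assembled transcript, as the stacked bars show. RPL6, RPL35A, RPL4, RPL8 and RPL36A are described here after their values were seen. RPS12, a protein of the small subunit, had 1990, 4385 and 2750 FPKM in the controls and 4885, 5450 and 1056 FPKM after heat shock. Of the 4385 FPKM in control replicate 2, 3533 FPKM lay on an assembled transcript of 141 bases, against 503 bases for the annotated one. RPS15A had 2460, 1058 and 7686 FPKM in the controls and 5363, 6057 and 1207 FPKM after heat shock, and in control replicate 3 an assembled transcript of 246 bases held 6680 FPKM. RPS12 was thus high in a single control library and RPS15A in another.

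RPL26, which lies at the exit of the peptide tunnel, had 1672, 838 and 5737 FPKM in the controls and 3872, 4619 and 887 FPKM after heat shock. In control replicate 3 an assembled transcript of 212 bases held 4376 FPKM of it, while the annotated transcript of 582 bases held 1362 FPKM. RPS23, a protein of the decoding region, had 188, 327 and 203 FPKM in the controls and 437, 495 and 98.8 FPKM after heat shock. In control replicate 2 an assembled transcript of 470 bases held 253 FPKM, and the annotated transcript of RPS23 is 3314 bases long. The fold changes of RPS12, RPS15A, RPL26 and RPS23 relative to the family, -0.84, -0.59, -0.59 and -0.66 on the log2 scale, each turned on 1 control library and had intervals that held 0.

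RPL6, RPL35A and RPL39 showed the same thing in heat shock libraries. RPL6 had 867, 407 and 877 FPKM in the controls and 6235, 4491 and 433 FPKM after heat shock, of which 5535 and 3647 FPKM in replicates 1 and 2 lay on assembled transcripts of 383 and 503 bases. RPL35A had 601, 300 and 760 FPKM in the controls and 3936, 1586 and 305 FPKM after heat shock, with 3698 FPKM in replicate 1 on an assembled transcript of 305 bases. RPL39, a very small protein that lines the peptide tunnel, had 515, 199 and 383 FPKM in the controls and 1067, 2151 and 229 FPKM after heat shock, with 1517 FPKM in replicate 2 on an assembled transcript of 248 bases. In heat shock replicate 3 the FPKM of all 3 lay within the range of the controls, while relative to the family RPL6 and RPL35A lay below all controls there, at 875 and 616.

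**Figure D4:**
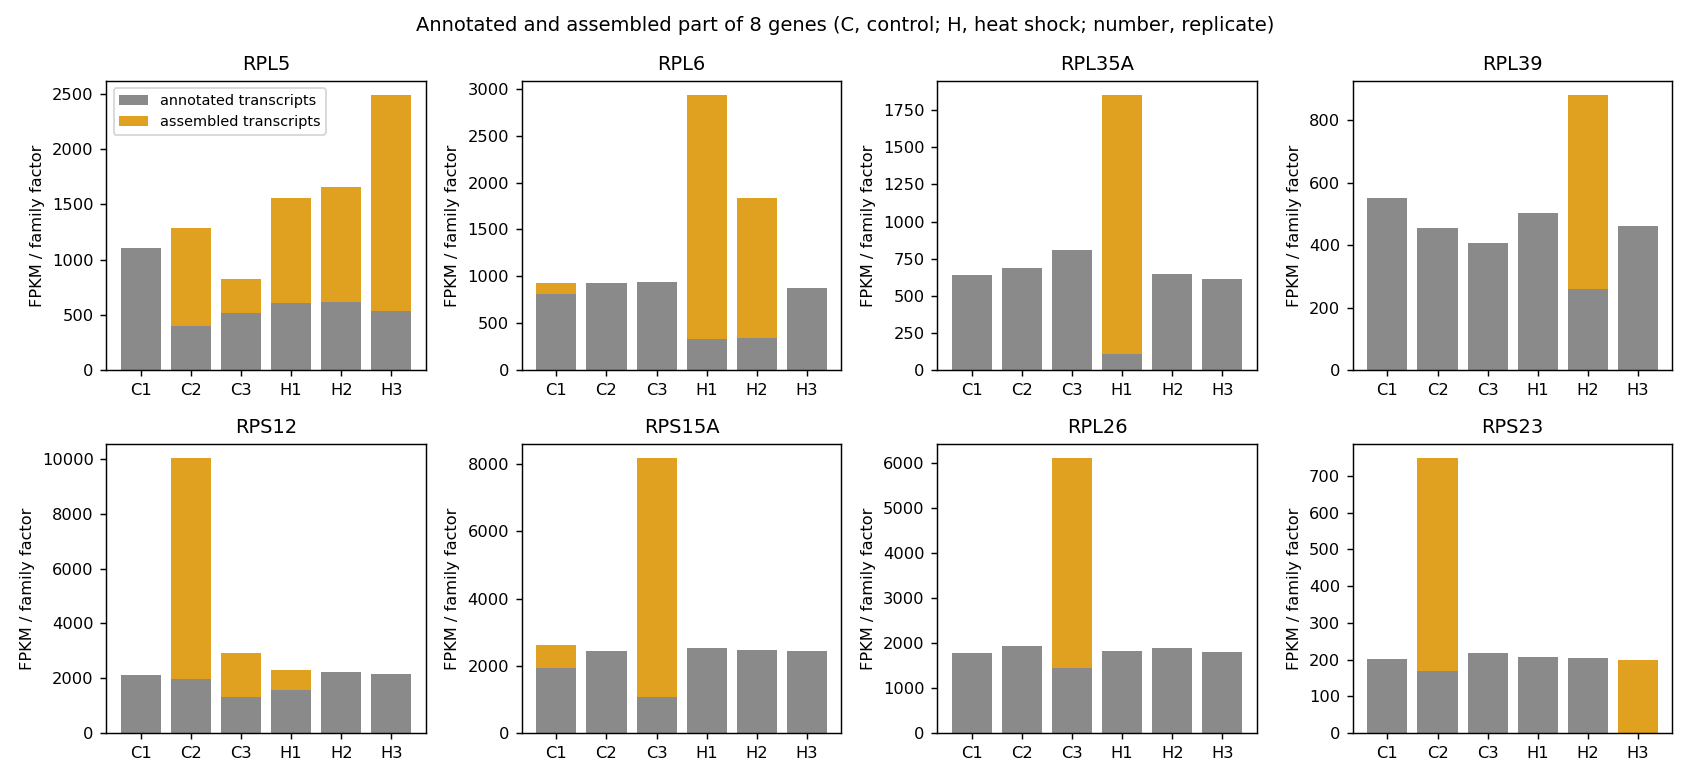
FPKM divided by the family factor (vertical) of 8 ribosomal protein genes in the 3 control (C) and 3 heat shock (H) libraries, split into annotated (grey) and assembled (gold) transcripts. RPL5, RPL6, RPL35A and RPL39 have tall gold parts in heat shock libraries and RPS12, RPS15A, RPL26 and RPS23 in control libraries.

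Fragments could also be lost from a member. RPL4 had 367 FPKM in heat shock replicate 1 and 1060 FPKM in heat shock replicate 2, and in the first an assembled transcript of 902 bases with 1328 FPKM had been grouped with several genes and was counted to none. RPL36A in control replicate 3 had 1105 FPKM, beside a transcript of 512 bases with 1082 FPKM that was grouped in the same way. RPL8 had 1268 FPKM in heat shock replicate 2, against 1994 FPKM in heat shock replicate 1, and there a transcript of 255 bases without a strand lay over it with 10335 FPKM. Of the 504 pairs of a member and a library, 36 had more than 50% of the FPKM on assembled transcripts, and 31 members had an assembled part in at least 1 library. After weighting by transcript length, 70 of the 84 members lay within 1.5-fold and 80 within 2-fold relative to the family, and the exceptions to the latter were RPL4, RPL39L, RPL3L and RPL10L. This weighting was added after the values were seen.

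**Figure D5:**
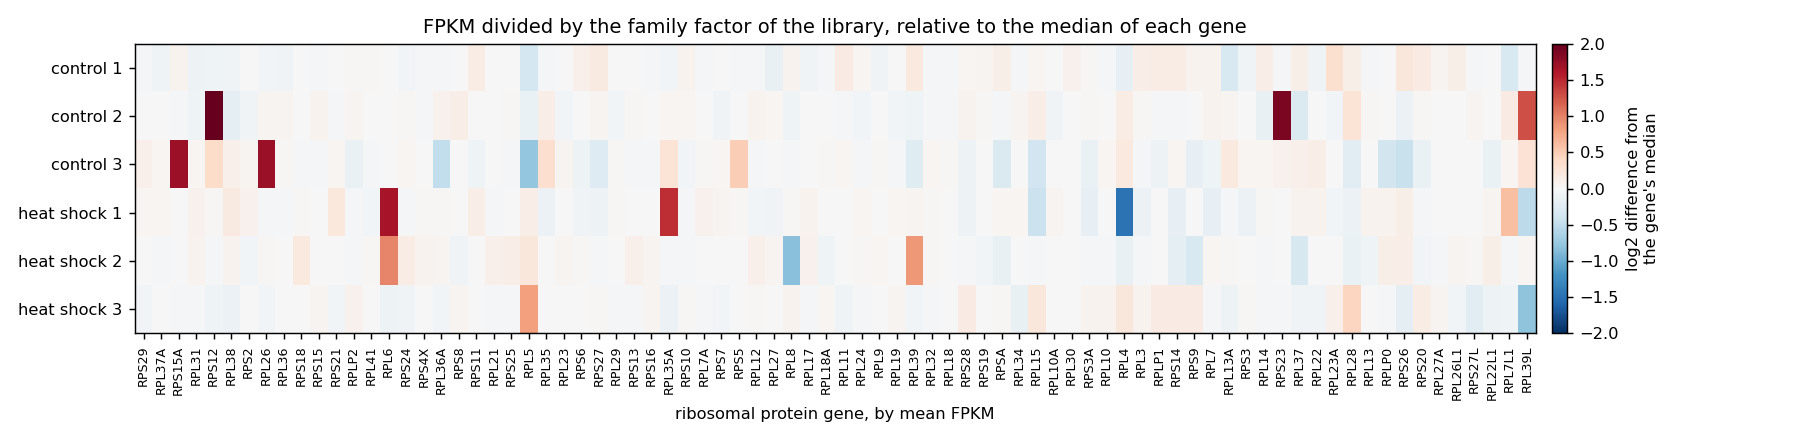
Log2 difference of each library (rows) from the median of the gene, for FPKM divided by the family factor, in the ribosomal protein genes reported here, ordered by mean FPKM (columns). RPL3L and RPL10L, listed at 0 in a library, are left out, and differences beyond 2 have the end colours; most cells are pale, and strong ones are seen in 1 library of RPS12, RPS15A, RPL26, RPS23, RPL35A and RPL4 and in 2 libraries of RPL6.

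By role, the stalk proteins, which draw the GTP-using translation factors to the large subunit, behaved like the rest of the family. RPLP0, the base of the stalk, had 134, 62.2 and 104 FPKM in the controls and 319, 380 and 69.9 FPKM after heat shock. RPLP1 had 349, 143 and 292 FPKM in the controls and 710, 817 and 186 FPKM after heat shock, and RPLP2 had 1870, 894 and 1680 FPKM and then 4148, 4760 and 1033 FPKM. The mean over all libraries was 178 FPKM for RPLP0, 416 FPKM for RPLP1 and 2397 FPKM for RPLP2. The groups overlapped in all 3, and their log2 fold changes relative to the family were 0.18, 0.05 and 0.04, with intervals that held 0.

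RPSA, a small-subunit protein that is also known as the laminin receptor, had 552, 233 and 415 FPKM in the controls and 1185, 1194 and 272 FPKM after heat shock. Its log2 fold change was 0.95 (SE 0.88) as deposited and 0.03 (SE 0.12) relative to the family. The median log2 fold change as deposited was 0.93 over the 46 large-subunit genes, with a range from 0.33 to 1.76, and 0.91 over the 31 small-subunit genes, with a range from 0.08 to 1.04. Relative to the family the medians were 0.01 and -0.01.

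RPS20 and RPL23A are the parents of retro-elements that the study followed, and RPL10 is described beside them. RPL10, which joins the large subunit late in its assembly, had 369, 175 and 388 FPKM in the controls and 850, 952 and 208 FPKM after heat shock. Its values divided by the family factor differed by at most 1.07-fold, and its log2 fold change relative to the family was 0.00 (SE 0.06). RPL23A, beside the tunnel exit, had 230, 82.6 and 183 FPKM in the controls and 405, 486 and 105 FPKM after heat shock, a log2 fold change relative to the family of -0.06 (SE 0.12). RPS20, in the head of the small subunit, had 116, 49.0 and 94.4 FPKM in the controls and 231, 261 and 60.8 FPKM after heat shock, a log2 fold change relative to the family of 0.01 (SE 0.11). In all 3 the groups overlapped as deposited. Pseudogenes named after a member exist for 77 members, 1580 in all, with 133 for RPL21 alone, and how their reads were divided from those of the parents is not known from the values.

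The 7 paralogs lay far below the genes they resemble. RPL26L1 had a mean of 64.6 FPKM over the 6 libraries and RPL26 had 2938 FPKM. RPS27L, a p53 target, had a mean of 31.3 FPKM and RPS27 had 1367 FPKM. RPL22L1 had 14.9 FPKM and RPL22 had 252 FPKM, RPL7L1 had 10.3 FPKM and RPL7 had 373 FPKM, and RPL39L had 6.0 FPKM and RPL39 had 757 FPKM. RPL26L1, RPS27L and RPL22L1 kept step with the family, with values that differed by at most 1.14-fold, 1.22-fold and 1.19-fold after division by the family factor.

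The paralogs with the lowest levels did not keep step. RPL39L, which is known from male germ cells, had 4.45, 5.19 and 5.60 FPKM in the controls and 7.17, 12.2 and 1.38 FPKM after heat shock, where 4.76 of the 5.19 FPKM lay on an assembled transcript with 1 exon. RPL7L1 had 5.70, 3.67 and 7.21 FPKM in the controls and 24.1, 17.9 and 3.50 FPKM after heat shock, and none of its FPKM in the controls or in heat shock replicate 1 lay on its annotated transcript. The log2 fold change of RPL7L1 relative to the family was 0.17, with a 95% interval from -0.44 to 0.78, and with length weighting it was -0.37, with an interval from -0.69 to -0.04 and an adjusted p of 0.838 by limma. RPL3L, the copy of RPL3 known from heart and skeletal muscle, was listed at 0 in control replicate 1, with 3.37 and 10.2 FPKM in the other controls and 0.198, 6.38 and 3.85 FPKM after heat shock, and only the 0.198 FPKM lay on its annotated transcript. RPL10L, known from the testis, was listed at 0 in 3 libraries and was at most 0.0978 FPKM in the rest. The parent RPL3 had 405, 176 and 363 FPKM in the controls and 776, 943 and 206 FPKM after heat shock.

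The authors' pooled FPKM of each group was on another scale than the libraries. Over the 81 members with a pooled value above 1, its median ratio to the mean of the libraries was 1.35 in the control and 3.002 in the heat shock group. The pooled heat shock value lay above the highest of the 3 libraries in 80 members, and the pooled control value in 70. RPL13A, named after its values were seen, had pooled values of 1635 and 8511 FPKM, while its libraries averaged 227 ± 92.4 FPKM (SD, n = 3) in the controls and 500 ± 320 FPKM (SD, n = 3) after heat shock. RPS23 had pooled values of 745 and 3483 FPKM, against library means of 240 ± 76.2 and 344 ± 214 FPKM (SD, n = 3 each). A ratio of the pooled values is thus larger than the ratio of the library means in a typical member.

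Small nucleolar RNA genes, which guide the modification of ribosomal RNA, lie inside 29 members, 58 in all, and the median log2 fold change was 0.92 in these members and 0.92 in the members of the subunits without one. The median FPKM was lower in the members with one in every library, at 552 against 885 FPKM in control replicate 1 and 1299 against 2135 FPKM in heat shock replicate 1, and this difference in level was not tested. FAU and RPS27A make a ribosomal protein joined to a ubiquitin-like protein or to ubiquitin and are not members by their names. FAU had 944, 445 and 941 FPKM in the controls and 2158, 2345 and 518 FPKM after heat shock. RPS27A had 778, 388 and 847 FPKM in the controls and 1833, 2163 and 416 FPKM after heat shock. Divided by the family factor, the values of either gene differed by at most 1.09-fold.

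The list for ribosome assembly holds 45 genes, among them LARP1, LARP4 and genes for the transcription of ribosomal RNA. All 45 were tested and 0 had an unadjusted p under 0.05 by limma, where 2.07% of all genes were higher and 1.62% lower. Their log2 fold change was above 0 in 42 as deposited, against 73.0% of all genes, with a median of 0.72. With the factor over other abundant genes it was above 0 in 19, against 29.1% of all genes, with a median of -0.05. The highest were FBL, which methylates ribosomal RNA, with 162, 77.3 and 204 FPKM in the controls and 1491, 1756 and 81.8 FPKM after heat shock, and EIF6, which keeps the large subunit from joining, with 50.4, 23.7 and 53.4 FPKM and then 120, 915 and 24.99 FPKM. Both were high in libraries where the members were high, and neither was above all controls in heat shock replicate 3. With the factor over other abundant genes their log2 fold changes were 1.26 and 0.94, each with an adjusted p of 0.923 by limma. The lowest were EFL1, which releases EIF6, at -0.22, and DKC1, which modifies ribosomal RNA, at -0.20, both with adjusted p-values of at least 0.827 by limma.

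The heat shock labels were checked on 8 heat shock genes, of which 3 had an unadjusted p under 0.05 as deposited, where 2.07% of all genes were higher and 1.62% lower, and 4 with the factor over other abundant genes, where 0.768% were higher and 2.40% lower. All of these heat shock genes had log2 fold changes above 0 on both scales. DNAJB1, a co-chaperone, had 7.80, 11.2 and 9.52 FPKM in the controls and 56.7, 50.6 and 70.1 FPKM after heat shock when divided by that factor, with a log2 fold change of 2.52 and an adjusted p of 0.119 by limma. As deposited, DNAJB1 was at 34.0 FPKM in heat shock replicate 3 and at most 9.18 FPKM in the controls. The ribosomal protein genes of heat shock replicate 3 lay with the lowest control on that deposited scale. Divided, they were not low there, with a family factor 1.02 times the factor over other abundant genes. Of the 7 HEK293 markers VIM was between 85.3 and 929 FPKM. KRT18 was between 7.86 and 34.47 FPKM and KRT8 between 1.77 and 16.61 FPKM. NEFL was between 2.45 and 12.96 FPKM and NEFM between 1.44 and 8.92 FPKM. PAX2 was at most 4.26 FPKM and LHX1 at most 1.69 FPKM. PAX2 and LHX1, known from the developing kidney, were thus scarcely present. Of 6 markers of other cell types, COL1A1 of fibroblasts was between 3.23 and 4.16 FPKM, and the endothelial PECAM1 was at most 0.883 FPKM. COL1A1 lay above PAX2 in every library except heat shock replicate 3, where PAX2 had its 4.26 FPKM. PTPRC and CD3E of leukocytes were at most 0.344 and 0.329 FPKM, HBB of red cells at most 0.254 FPKM and ALB of liver at most 0.0808 FPKM.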

How the data were processed

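RNA of 3 control and 3 heat shock HEK293 libraries was sequenced after removal of ribosomal RNA. Per the submitters' processing notes, the authors used FastQC 0.10.1, Trimmomatic 0.3.0 and TopHat2 on the build hg19, and Cufflinks 2.0.2 assembled every library separately. The deposited value of a transcript is an FPKM, and the authors' table holds 1 pooled FPKM per group from Cuffdiff. Its fold changes, p-values and q-values were not used. The files hold no read counts, so relative depth was read from the coverage per FPKM, and the deepest library had 2.03 times that of the shallowest.

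The FPKM of a gene is the sum over its annotated transcripts and the assembled transcripts grouped with that gene alone. Symbols came from RefSeq accessions, which named 96.5% of 43536 annotated transcripts. The 13028 genes whose mean over the libraries reached 1 FPKM were fitted with limma 3.58.1 in R 4.3.3 (lmFit and eBayes with a trend) on log2(FPKM + 1), a scale that understates the change of low genes, and p-values were adjusted over all genes by the Benjamini-Hochberg method. The fit was also run on simulated data with small independent noise and no common library factor. That run does not show how the fit behaves on libraries that differ by such a factor.

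Members and lists were chosen with earlier results of these data known. The genes named in the text were the 5 highest and 5 lowest members, the stalk genes and RPSA, RPS20, RPL23A, RPL10 and RPL26, the paralogs and their closest members, up to 5 per direction with no overlap of the groups relative to the family, the 3 with the widest spread, those listed at 0, and the extremes of the assembly list. Exceptions are stated, and some genes are not reported here. Alternatives were other scalings, pseudocounts, minimums, variance models and sums of transcripts, the replicate number as a block, and leaving out each library. Promoter windows came from RefSeq on GRCh38.p14, and snoRNA and pseudogene names from GENCODE 44.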

Additional observations from a re-analysis of the deposited data

How the results depend on the processing

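Limma called 0 of the ribosomal protein genes under every alternative with an adjusted p-value, and 1 of them, RPL5, with the p-value unadjusted. Of all genes, 3 were called as reported, 2 higher and 1 lower. The count was 1 with median-of-ratios size factors, 0 with size factors over other abundant genes, 0 with the family factor, 0 without a minimum FPKM, 1 without a trend, 1 from annotated transcripts alone, 0 with length weighting and the family factor, and 477 with the p-value unadjusted. Leaving out 1 library each gave between 0 and 10 called genes, with 10 when heat shock replicate 3 was left out and 0 without any 1 of the controls. The median log2 fold change of the members was 0.91 as reported, between 0.50 and 1.64 with 1 library left out, 0.33 with median-of-ratios size factors, 0.17 in TPM and 0.90 from annotated transcripts alone. The cause of these differences was not tested.

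The labels do not say whether libraries with the same replicate number were handled together. The deviations of same-numbered libraries from their group means had correlations over genes of 0.03, -0.33 and -0.38. Those of differently numbered libraries were between -0.31 and 0.44. Deviations from a mean of 3 libraries are tied to each other, so these correlations cannot decide whether the numbers mark pairs. A fit with the replicate number as a block called 17 of all genes and 0 members.

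For the 30 named genes reported, 67 of 536 values under an alternative changed sign and none crossed the threshold. With the family factor the log2 fold changes were RPS29 -0.023, RPS15A -0.59, RPL39L -0.79, RPL23A -0.058, RPL26 -0.59, RPL3 -0.068, RPL7 -0.071, RPL22 -0.018, RPL26L1 -0.032, RPS27L -0.072, RPS27 -0.022, RPS12 -0.84 and RPS23 -0.66. These are negative where a gene lies below the middle of its family. With length weighting besides, added after the values were seen, they were RPS29 -0.0197, RPS15A -0.30, RPL7L1 -0.37, RPL39L -0.67, RPLP0 -0.0036, RPL23A -0.055, RPL10 -0.0069, RPL26 -0.27, RPL3 -0.066, RPL7 -0.068, RPL22 -0.015, RPL26L1 -0.031, RPS27L -0.069, RPS27 -0.019, RPS12 -0.36 and RPS23 -0.14. With size factors over other abundant genes they were RPS15A -0.54, RPL39L -0.75, RPL23A -0.0068, RPL26 -0.54, RPL3 -0.016, RPL7 -0.0202, RPS27L -0.022, RPS12 -0.79 and RPS23 -0.61. With median-of-ratios size factors RPS15A was at -0.27, RPL39L at -0.50, RPL26 at -0.26, RPS12 at -0.51 and RPS23 at -0.33. In TPM the values were RPS15A -0.425, RPL39L -0.74, RPL26 -0.42, RPS12 -0.67 and RPS23 -0.49. With a pseudocount of 0.1 RPL39L was at -0.0175 and RPL3L at 0.36, and from annotated transcripts alone RPS23 was at -1.25. With 1 library left out the range was -0.36 to 1.07 for RPS15A, -0.30 to 1.09 for RPL26, -0.34 to 0.84 for RPS12, -0.16 to 1.00 for RPS23, -0.46 to 0.78 for RPL39L and -1.001 to 0.74 for RPL3L.

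The precision is limited by 3 libraries per group that differ by a common factor, by the absence of read counts and by the assignment of short assembled transcripts. Near-identical copies and pseudogenes can share reads with a member.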
